A study of Mus musculus with 6 samples.

Results

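The genes described here encode the enzymes that bring pyruvate and fatty acids into the mitochondrial tricarboxylic acid (TCA) cycle and turn them into acetyl-CoA and reduced carriers. They are 34 named genes, and all 34 were found once by gene name among the 35275 genes of the deposited expression table. Tissue came from male C57BL/6 mice in 2 groups of 3 samples. TfrcAKO mice, known as an adipocyte-specific knockout of the transferrin receptor gene Tfrc, were set against Tfrcfl/fl mice, in which both Tfrc copies carry loxP sites and no deletion is labelled. All of them were fed a diet with 60% fat from 2 months of age for 10 weeks and were 4.5 months old at sampling, so every sample comes from an obesogenic diet. The labels name neither the promoter that drives the deletion in TfrcAKO mice nor whether each sample is 1 animal. The RNA came from whole epididymal fat, the visceral depot beside the testis, and was sequenced as total RNA libraries.

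Pyruvate made by glycolysis enters mitochondria and is either oxidised to acetyl-CoA by the pyruvate dehydrogenase complex or carboxylated to oxaloacetate by pyruvate carboxylase. Fatty acids are first joined to coenzyme A, pass the inner membrane as carnitine esters, and are then shortened by repeated rounds of dehydrogenation, hydration, a further dehydrogenation and thiolysis. In white fat the same reactions also feed citrate and oxaloacetate to lipid synthesis and to glyceroneogenesis. Several of these steps depend on iron, through the iron-sulfur clusters of succinate dehydrogenase and the electron transfer flavoprotein dehydrogenase (Etfdh).

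Levels are FPKM, fragments scaled to gene length and to the library's assigned total, and changes are log2 fold changes on log2(FPKM + 0.5), TfrcAKO over Tfrcfl/fl, from limma; p-values were adjusted by Benjamini-Hochberg over the 14383 genes tested. A gene was called to rise or fall at an adjusted p under 0.05. The libraries held 25252839 to 30650624 gene-assigned reads, and the least covered gene described here, Suclg2, still had 632 reads in its lowest library. TfrcAKO replicate 3 stood apart on the first principal component, at −60.9 against −21.7 and −25.2 for the other TfrcAKO samples and 28.6 to 41.7 for the Tfrcfl/fl samples. Tfrc itself was at 7.10, 8.27 and 9.50 FPKM in TfrcAKO samples, against 11.1, 13.2 and 11.9 FPKM in Tfrcfl/fl samples, and fell by limma (−0.52 ± 0.12 on the log2 scale, adjusted p = 0.0147; ± is the standard error of a log2 fold change and the SD of 3 samples beside a mean level). That call was lost without Tfrcfl/fl replicate 2 or replicate 3. Over all tested genes 43.5% were called, 21.9% higher and 21.6% lower in TfrcAKO tissue, and the median change was −0.03.

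Nearly the whole set was higher in TfrcAKO fat. Of the 34 genes, 32 rose, against 21.9% of all tested genes, 1 fell and 1 was not called. The gene that fell was Cpt1a, the liver-type carnitine palmitoyltransferase of the outer membrane, and the one not called was Hadha, the alpha subunit of the mitochondrial trifunctional protein. The median change over the 34 was 0.67, and the called rises ran from 0.36 for Ogdh to 1.56 for Pcx. Summed over the 34 genes, the level was 3562 ± 612 FPKM in TfrcAKO and 2107 ± 213 FPKM in Tfrcfl/fl tissue (SD, n = 3 each). In 32 genes every TfrcAKO sample lay above every Tfrcfl/fl sample, where 29.1% of tested genes did so (60.1% were apart in either direction, 31.0% with TfrcAKO lower). TfrcAKO replicate 3 was the highest of the 6 samples for 33 of the 34 genes, and Tfrcfl/fl replicate 1 was the highest of its group for 32. This was not particular to the set. TfrcAKO replicate 3 was also the highest for 20 of 21 mature adipocyte markers and 15 of 20 mitochondrial housekeeping genes. For 19 of 21 macrophage markers it was the lowest. The share over all tested genes was not counted. Without TfrcAKO replicate 3 the median was 0.57 and 32 genes rose. In the fits without Tfrcfl/fl replicate 2 or without Tfrcfl/fl replicate 3, 22 rose and none fell; over all tested genes these fits called 3336 and 3421 genes in place of 6253. In whole tissue, a different share of adipocytes and a different amount of RNA per adipocyte cannot be told apart.

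**Figure D1:**
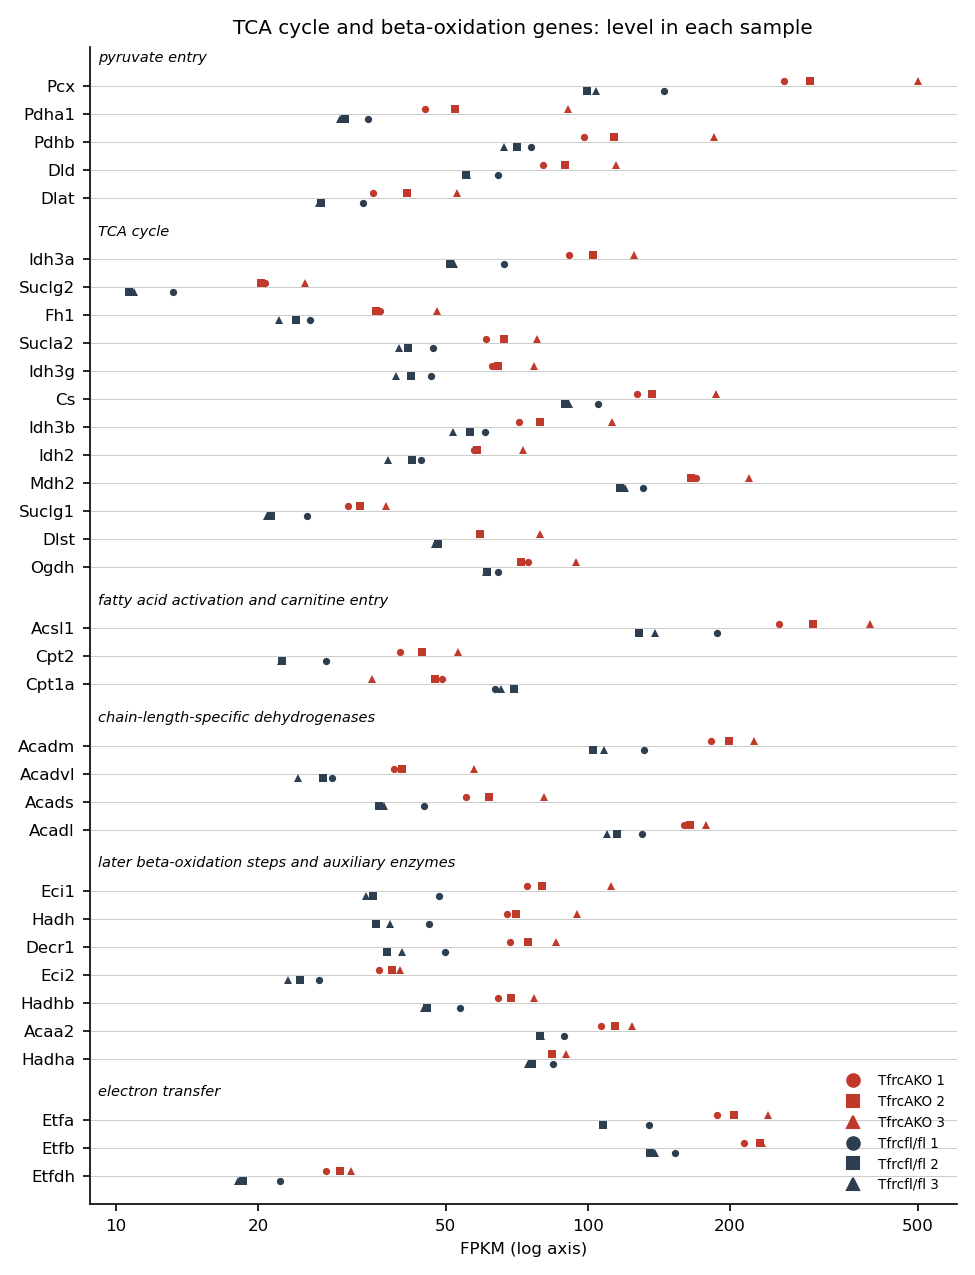
FPKM (log axis) of each of the 34 genes in each sample, grouped by step; red points are TfrcAKO samples, drawn above the dark points of Tfrcfl/fl samples, and symbols mark the replicates. The red points lie to the right in 32 genes, to the left for Cpt1a, and the groups overlap for Hadha.

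**Figure D2:**
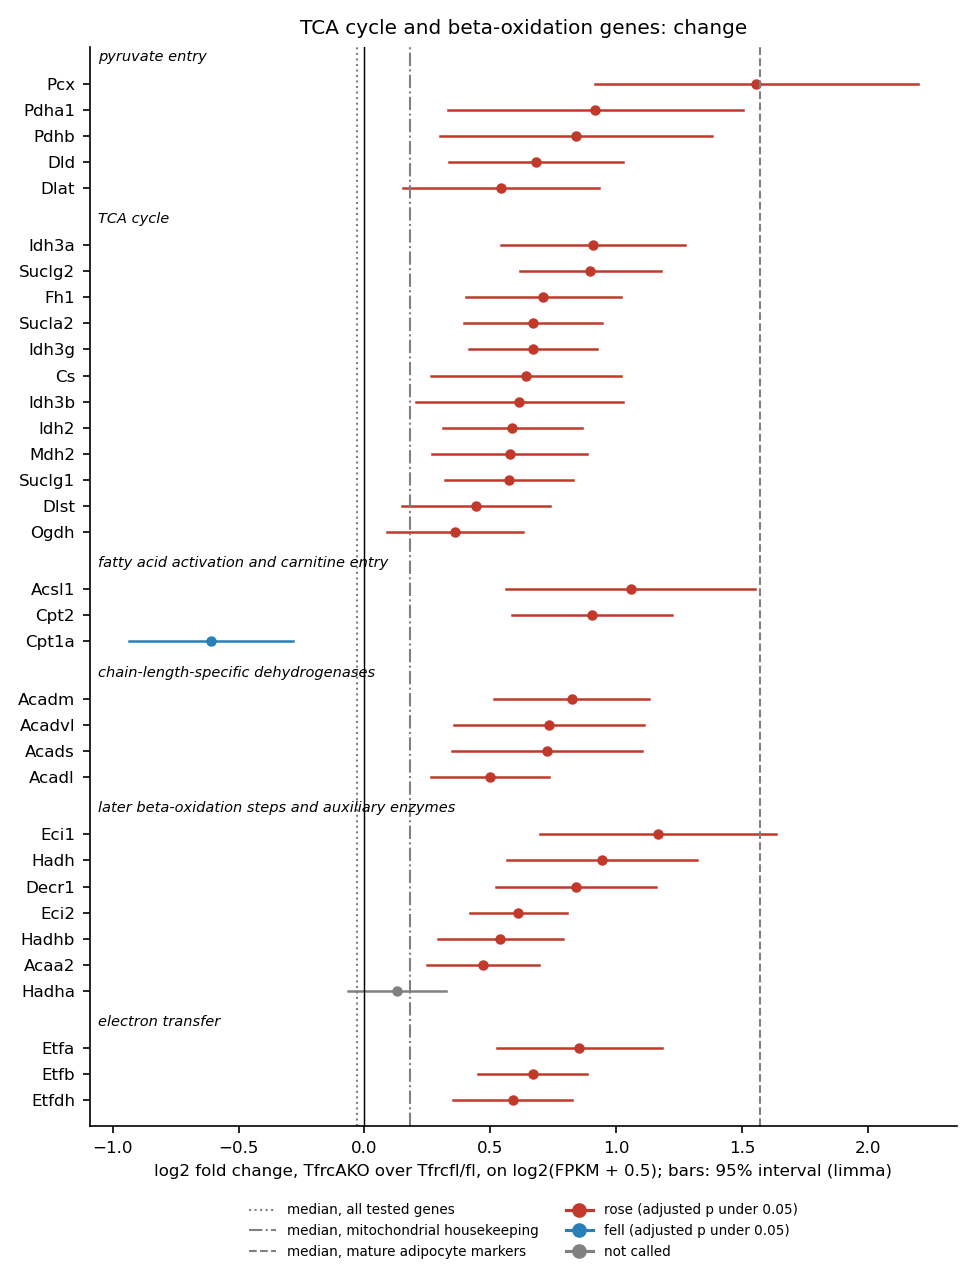
Log2 fold change, TfrcAKO over Tfrcfl/fl, of each gene with its 95% interval from limma; vertical lines mark the medians of all tested genes (−0.03), of mitochondrial housekeeping genes (0.18) and of mature adipocyte markers (1.57). Pcx is farthest right at 1.56, and only Cpt1a has its whole interval below 0.

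All 5 genes of pyruvate entry rose, with a median of 0.84, and Pcx rose most of the whole set. The count was 3 without Tfrcfl/fl replicate 1, 1 without replicate 2 and 2 without replicate 3. Pcx encodes pyruvate carboxylase, which makes oxaloacetate from pyruvate, and lies on mm10 chromosome 19 from 4510472 to 4621752. Pcx was at 261, 296 and 500.1 FPKM in TfrcAKO samples, against 145, 99.5 and 104 FPKM in Tfrcfl/fl samples. Every TfrcAKO value was well above every Tfrcfl/fl value, and TfrcAKO replicate 3 was far above the rest of its group. Its change was 1.56 ± 0.27, with a limma adjusted p of 0.00679, and 1.27 without TfrcAKO replicate 3.

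Among the subunits of the pyruvate dehydrogenase complex, both E1 genes had larger point estimates than the E2 gene. Pdha1, the E1 alpha subunit that is the target of the inhibitory kinases, was at 45.3, 52.4 and 90.7 FPKM in TfrcAKO samples, against 34.2, 30.6 and 29.9 FPKM in Tfrcfl/fl samples. Pdhb, the E1 beta subunit, was at 98.1, 114 and 185 FPKM in TfrcAKO samples, against 75.6, 70.9 and 66.5 FPKM in Tfrcfl/fl samples. In both genes TfrcAKO replicate 3 carried much of the difference: the changes were 0.92 ± 0.25 and 0.84 ± 0.23 with all samples and 0.62 and 0.57 without it, still called. Dlat, the E2 acetyltransferase, rose by 0.54 ± 0.16, and Dld, the E3 dehydrogenase shared with the ketoglutarate and branched-chain complexes, by 0.68 ± 0.14. Adjusted p from limma ran from 0.0117 for Dld to 0.0349 for Dlat, and each of the 4 lost its call in at least 1 fit that left out a library: Pdha1 and Pdhb whichever Tfrcfl/fl replicate was left out, Dlat without TfrcAKO replicate 2 or Tfrcfl/fl replicate 2 or 3, and Dld without Tfrcfl/fl replicate 2. Per sample, the ratio of Pcx to Pdha1 FPKM was 5.76, 5.64 and 5.51 in TfrcAKO samples, against 4.23, 3.25 and 3.49 in Tfrcfl/fl samples. These groups did not overlap; the exact permutation test gave p = 0.1, the smallest that 3 against 3 samples allow, and 0.16 adjusted over the 8 ratios tested in this way.

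Of 10 genes that carry pyruvate or control the complex, 3 rose and none fell, a share near the 21.9% of all tested genes that rose, with a median of 0.39; without TfrcAKO replicate 1 the count was 5. With all samples they were Pdk2, a kinase that inactivates the complex (1.08 ± 0.17), Mpc2, a subunit of the mitochondrial pyruvate carrier (0.91 ± 0.17), and Pdhx, the E3-binding protein (0.62 ± 0.14), which lost its call without Tfrcfl/fl replicate 2 or 3. The other subunit of the carrier, Mpc1, was not called (0.44 ± 0.21, limma adjusted p = 0.135). Pdk4, the kinase known to be induced by fasting, was not called (0.55 ± 0.31, limma adjusted p = 0.183), and the phosphatase gene Pdp1 had −0.24 ± 0.12 with an adjusted p of 0.140.

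All 12 TCA cycle genes of the set rose, by 0.36 to 0.91, with a median of 0.63; 7 rose without Tfrcfl/fl replicate 2, and 7 without replicate 3. Cs, citrate synthase, which joins acetyl-CoA to oxaloacetate, was at 127, 137 and 187 FPKM in TfrcAKO samples, against 105, 89.5 and 91.1 FPKM in Tfrcfl/fl samples. The next oxidation is run by the NAD-dependent isocitrate dehydrogenase, made of 3 gene products. Its catalytic subunit gene Idh3a was at 91.3, 102 and 126 FPKM in TfrcAKO samples, against 66.3, 50.9 and 51.9 FPKM in Tfrcfl/fl samples. It rose by 0.91 ± 0.15, while the regulatory subunit genes Idh3g and Idh3b rose by 0.67 ± 0.11 and 0.62 ± 0.17; Idh3b lost its call whichever Tfrcfl/fl replicate was left out. Idh2, the NADP-dependent isocitrate dehydrogenase of mitochondria, rose by 0.59 ± 0.12. The ratio of Idh2 to Idh3a was 0.629, 0.570 and 0.579 in TfrcAKO samples, against 0.669, 0.834 and 0.727 in Tfrcfl/fl samples, lower in each TfrcAKO sample than in any Tfrcfl/fl sample (exact permutation p = 0.1, adjusted 0.16).

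Among the 12 TCA cycle genes of the set, Ogdh and Dlst of the ketoglutarate dehydrogenase complex had the smallest rises. Ogdh, its E1 subunit, was at 74.8, 72.3 and 94.3 FPKM in TfrcAKO samples, against 64.5, 61.2 and 60.7 FPKM in Tfrcfl/fl samples. Its change was 0.36 ± 0.11, with a limma adjusted p of 0.0405, the highest among the called genes. Dlst, the E2 subunit, rose by 0.44 ± 0.12. Both lost their call whichever Tfrcfl/fl library was left out. Ogdh also had an adjusted p of 0.0615 when samples were scaled by the median of ratios.

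Succinyl-CoA synthetase is a pair of one alpha subunit, Suclg1, with either of 2 beta subunits, Sucla2 for the ATP-forming and Suclg2 for the GTP-forming enzyme. Suclg2 was at 20.7, 20.3 and 25.1 FPKM in TfrcAKO samples, against 13.2, 10.6 and 10.9 FPKM in Tfrcfl/fl samples. Sucla2, the more abundant beta subunit, was at 60.9, 66.5 and 78.1 FPKM in TfrcAKO samples, against 47.0, 41.5 and 39.7 FPKM in Tfrcfl/fl samples. Both groups of 3 were apart in each gene, and the changes were 0.90 ± 0.12 for Suclg2, 0.67 ± 0.11 for Sucla2 and 0.57 ± 0.11 for Suclg1. Suclg2 made up 24.3% ± 0.98 of the summed beta subunit FPKM in TfrcAKO and 21.3% ± 0.78 in Tfrcfl/fl tissue (SD, n = 3 each). The ratio of Suclg2 to Sucla2 did not overlap between groups (exact permutation p = 0.1, adjusted 0.16). Fh1, fumarase, rose by 0.71 ± 0.13, and Mdh2, the mitochondrial malate dehydrogenase, by 0.58 ± 0.13; Cs and Mdh2 lost their call without Tfrcfl/fl replicate 2 or replicate 3.

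Among the genes of succinate dehydrogenase and its assembly, which are not in the set, Sdha, the flavoprotein subunit (0.70 ± 0.15), Sdhc, a membrane anchor (0.37 ± 0.11), and the assembly factor gene Sdhaf4 (0.58 ± 0.09) rose. Sdhaf4 kept its call whichever library was left out, Sdha lost it without Tfrcfl/fl replicate 2 or 3, and Sdhc lost it whichever Tfrcfl/fl replicate was left out. Sdhb, whose protein holds the iron-sulfur clusters of that enzyme, was not called (0.35 ± 0.13, limma adjusted p = 0.0684). Nor were Sdhd (0.30 ± 0.11, limma adjusted p = 0.0626) and the assembly factor gene Sdhaf2 (0.05 ± 0.07, limma adjusted p = 0.588). Sdhaf1 was too low to test. Among 8 genes of cytosolic counterparts and carriers, 4 rose, against 21.9% of all tested genes. They were Slc25a10, the dicarboxylate carrier (0.97 ± 0.15), Mdh1, the cytosolic malate dehydrogenase (0.71 ± 0.12), Slc25a1, the citrate carrier (0.61 ± 0.16), and Aco1, which encodes an iron regulatory protein (0.54 ± 0.11). Slc25a1 lost its call without TfrcAKO replicate 2 or Tfrcfl/fl replicate 2 or 3. Idh1, the cytosolic isocitrate dehydrogenase, was at 132 ± 5.86 FPKM in TfrcAKO and 130 ± 2.77 FPKM in Tfrcfl/fl tissue, a change of 0.02 ± 0.08 with a limma adjusted p of 0.879.

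At fatty acid activation and carnitine entry the 3 genes did not move together. Acsl1, the main long-chain acyl-CoA synthetase of adipocytes, was at 254, 301 and 396 FPKM in TfrcAKO samples, against 188, 128 and 139 FPKM in Tfrcfl/fl samples. It rose by 1.06 ± 0.21 (limma adjusted p = 0.00945). Cpt1a, on mm10 chromosome 19 from 3323301 to 3385732, encodes the enzyme that makes acylcarnitine on the outer membrane and is inhibited by malonyl-CoA. Cpt1a was at 49.0, 47.4 and 34.8 FPKM in TfrcAKO samples, against 63.5, 69.7 and 65.5 FPKM in Tfrcfl/fl samples. All 3 TfrcAKO values were lower than the lowest Tfrcfl/fl value, and TfrcAKO replicate 3 was the lowest. Its change was −0.61 ± 0.14, with a limma adjusted p of 0.0137; the adjusted p was 0.0571 without Tfrcfl/fl replicate 2 and 0.0501 without replicate 3. Cpt2, which releases the fatty acid from carnitine inside the mitochondrion, was at 40.0, 44.5 and 53.1 FPKM in TfrcAKO samples, against 27.8, 22.4 and 22.4 FPKM in Tfrcfl/fl samples. It was higher in each TfrcAKO sample, and rose by 0.90 ± 0.13 (limma adjusted p = 0.00485).

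The ratio of Cpt1a to Cpt2, looked at after both values were seen, was 1.22, 1.07 and 0.655 in TfrcAKO samples, against 2.28, 3.11 and 2.92 in Tfrcfl/fl samples (exact permutation p = 0.1, the smallest possible). The muscle isoform Cpt1b had only 4 to 15 reads per library in TfrcAKO and 5 to 11 in Tfrcfl/fl samples, and Cpt1a made up nearly all Cpt1 FPKM, 99.7% ± 0.24 in TfrcAKO and 99.9% ± 0.05 in Tfrcfl/fl tissue (SD, n = 3 each). The ratio of Cpt1a to Cpt1b overlapped between groups (exact permutation p = 0.3). Slc25a20, the carrier that exchanges acylcarnitine for carnitine between both enzymes, rose by 0.34 ± 0.09. Acacb, which makes malonyl-CoA at the outer membrane, was at 12.6, 11.9 and 29.4 FPKM in TfrcAKO samples, against 7.41, 4.82 and 6.15 FPKM in Tfrcfl/fl samples. It rose by 1.37 ± 0.35 with every TfrcAKO sample higher, and Mlycd, which breaks malonyl-CoA down, rose by 0.49 ± 0.10. Acsl4, the synthetase that prefers arachidonic acid, fell, with a change of −0.72 ± 0.12. Slc25a20 lost its call without TfrcAKO replicate 2 or Tfrcfl/fl replicate 2 or 3, Acacb without Tfrcfl/fl replicate 2 or 3, and Mlycd without Tfrcfl/fl replicate 2, while Acsl4 kept its call in all 6 fits.

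The promoters of the pair of carnitine transferases are shown because the genes moved in opposite directions, together with those of Acadm and Dld, the called genes with the largest changes after Cpt2 whose promoter held a searched motif. Windows of 300 bases, 250 before and 50 after each gene start, came from RefSeq on GRCm38.p6, the build called mm10, and were given for 31 of the 34 genes (38 windows, as some genes have several starts). Letters in capitals are motif matches on either strand.
Cpt1a, chr19:3323051-3323350, plus strand: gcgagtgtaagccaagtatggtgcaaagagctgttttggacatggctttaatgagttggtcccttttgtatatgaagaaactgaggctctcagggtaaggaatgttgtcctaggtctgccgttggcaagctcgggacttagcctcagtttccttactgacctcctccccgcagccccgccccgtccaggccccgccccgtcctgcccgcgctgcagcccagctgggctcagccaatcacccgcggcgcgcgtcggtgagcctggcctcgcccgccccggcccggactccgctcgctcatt
Cpt2, chr4:107923540-107923839, minus strand: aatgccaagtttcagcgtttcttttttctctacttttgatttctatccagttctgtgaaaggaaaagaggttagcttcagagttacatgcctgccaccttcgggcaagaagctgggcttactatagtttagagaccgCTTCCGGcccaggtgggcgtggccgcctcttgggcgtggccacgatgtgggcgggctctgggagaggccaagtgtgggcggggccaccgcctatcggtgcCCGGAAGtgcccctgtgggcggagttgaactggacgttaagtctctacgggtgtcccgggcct
Acadm, chr3:153944594-153944893, minus strand: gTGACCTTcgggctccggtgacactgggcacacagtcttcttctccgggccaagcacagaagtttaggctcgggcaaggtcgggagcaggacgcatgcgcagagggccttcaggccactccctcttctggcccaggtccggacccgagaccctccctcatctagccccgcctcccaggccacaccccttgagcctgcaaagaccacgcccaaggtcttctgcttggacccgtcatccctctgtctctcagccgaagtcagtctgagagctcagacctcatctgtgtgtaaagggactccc
Dld, chr12:31351422-31351721, minus strand: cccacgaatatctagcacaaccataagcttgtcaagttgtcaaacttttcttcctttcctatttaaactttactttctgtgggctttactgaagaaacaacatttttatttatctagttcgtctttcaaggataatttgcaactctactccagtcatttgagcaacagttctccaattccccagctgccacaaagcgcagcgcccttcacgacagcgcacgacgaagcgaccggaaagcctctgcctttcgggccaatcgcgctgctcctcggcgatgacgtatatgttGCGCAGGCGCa
The motifs were AAGGTCA, a single site of estrogen-related receptors, the direct repeat bound by PPAR with RXR (AGGTCA 2 times with 1 base between), whose units overlap the first motif, the NRF1 motif (GCGC and TGCGC with 1 base between) and CCGGAAG of ETS factors such as GABP. Cpt2 holds 2 ETS matches, Acadm 1 estrogen-related receptor site and Dld 1 NRF1 match, while none of these letters is in the Cpt1a window. Over the 38 windows the ETS motif was in 4 (10.5%, against 8.86% of all 32851 windows), the NRF1 motif in 4 (10.5% against 4.60%), the estrogen-related receptor site in 2 (5.26% against 4.72%) and the direct repeat in 0 (against 0.0396%). These are counts of letters, not of bound sites. Of the regulators themselves, Esrra, Nrf1 and Gabpa were not called (log2 fold changes −0.11 ± 0.08, −0.18 ± 0.10 and −0.06 ± 0.08, limma adjusted p 0.263, 0.171 and 0.575). Among 11 tested regulators 4 rose, against 21.9% of all tested genes. They were Rxrg (1.18 ± 0.22), Pparg (0.89 ± 0.20), Nrip1, a corepressor (0.78 ± 0.24), and Rxra (0.45 ± 0.10). Without Tfrcfl/fl replicate 2 the count was 2, and it was also 2 without replicate 3. Pparg is also counted among the mature adipocyte markers below. Rxrg and Rxra kept their call whichever library was left out. Nrip1 lost its call without TfrcAKO replicate 2 or 3 or Tfrcfl/fl replicate 2 or 3. Its groups overlapped, with TfrcAKO replicate 1 at 8.22 FPKM and Tfrcfl/fl replicate 1 at 8.31 FPKM. Ppargc1a, the coactivator known to drive mitochondrial biogenesis, was too low to test, at 0.532 ± 0.128 FPKM in TfrcAKO and 0.264 ± 0.0929 FPKM in Tfrcfl/fl tissue.

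The acyl-CoA dehydrogenases open each round of beta-oxidation and differ in the chain length they prefer. All 4 rose, with a median of 0.73. Acadvl, for very long chains, was at 38.9, 40.3 and 57.5 FPKM in TfrcAKO samples, against 28.7, 27.5 and 24.3 FPKM in Tfrcfl/fl samples. Acadl, for long chains, was at 159.6, 165 and 178 FPKM in TfrcAKO samples, against 130.4, 115 and 109.6 FPKM in Tfrcfl/fl samples. Acadm, for medium chains, was at 182, 199 and 225 FPKM in TfrcAKO samples, against 132, 103 and 108 FPKM in Tfrcfl/fl samples. No group overlapped in these genes, and the changes were 0.73 ± 0.16 for Acadvl, 0.50 ± 0.10 for Acadl and 0.82 ± 0.13 for Acadm. Acads, for short chains, rose by 0.73 ± 0.16. Acadvl lost its call without Tfrcfl/fl replicate 3, and Acads without Tfrcfl/fl replicate 2 or 3, so 2 of the 4 rose without Tfrcfl/fl replicate 3. Acadl and Acadm were at close levels in Tfrcfl/fl tissue, and their ratio was lower in each TfrcAKO sample, with means of 0.832 ± 0.043 in TfrcAKO and 1.04 ± 0.072 in Tfrcfl/fl tissue (SD, n = 3 each; exact permutation p = 0.1, adjusted 0.16). The ratio of Acadvl to Acadm was 0.213, 0.202 and 0.256 in TfrcAKO samples, against 0.218, 0.268 and 0.224 in Tfrcfl/fl samples, with overlapping groups (exact permutation p = 0.5).

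After the first dehydrogenation, long chains are handled by the trifunctional protein, made of the Hadha and Hadhb subunits. Of its genes, Hadhb was called to rise and Hadha was not called. Hadha carries the hydratase and the hydroxyacyl-CoA dehydrogenase, and Hadhb the thiolase. Hadha was at 83.6, 84.1 and 89.7 FPKM in TfrcAKO samples, against 84.5, 76.1 and 74.6 FPKM in Tfrcfl/fl samples. Tfrcfl/fl replicate 1 lay above TfrcAKO replicates 1 and 2, so the groups overlapped. Its change was 0.13 ± 0.08, with a 95% interval of −0.06 to 0.33 and a limma adjusted p of 0.234. Hadhb was at 64.4, 68.7 and 76.8 FPKM in TfrcAKO samples, against 53.5, 45.5 and 44.9 FPKM in Tfrcfl/fl samples, with no overlap, and rose by 0.54 ± 0.10 (limma adjusted p = 0.00878). The ratio of Hadha to Hadhb was 1.23 ± 0.066 in TfrcAKO and 1.64 ± 0.050 in Tfrcfl/fl tissue (SD, n = 3 each), and it was lower in each TfrcAKO sample. The exact permutation p of this ratio was 0.1 and its adjusted p 0.16, and its log2 difference, −0.41 with all samples, stayed between −0.45 and −0.38 when single libraries were left out.

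**Figure D3:**
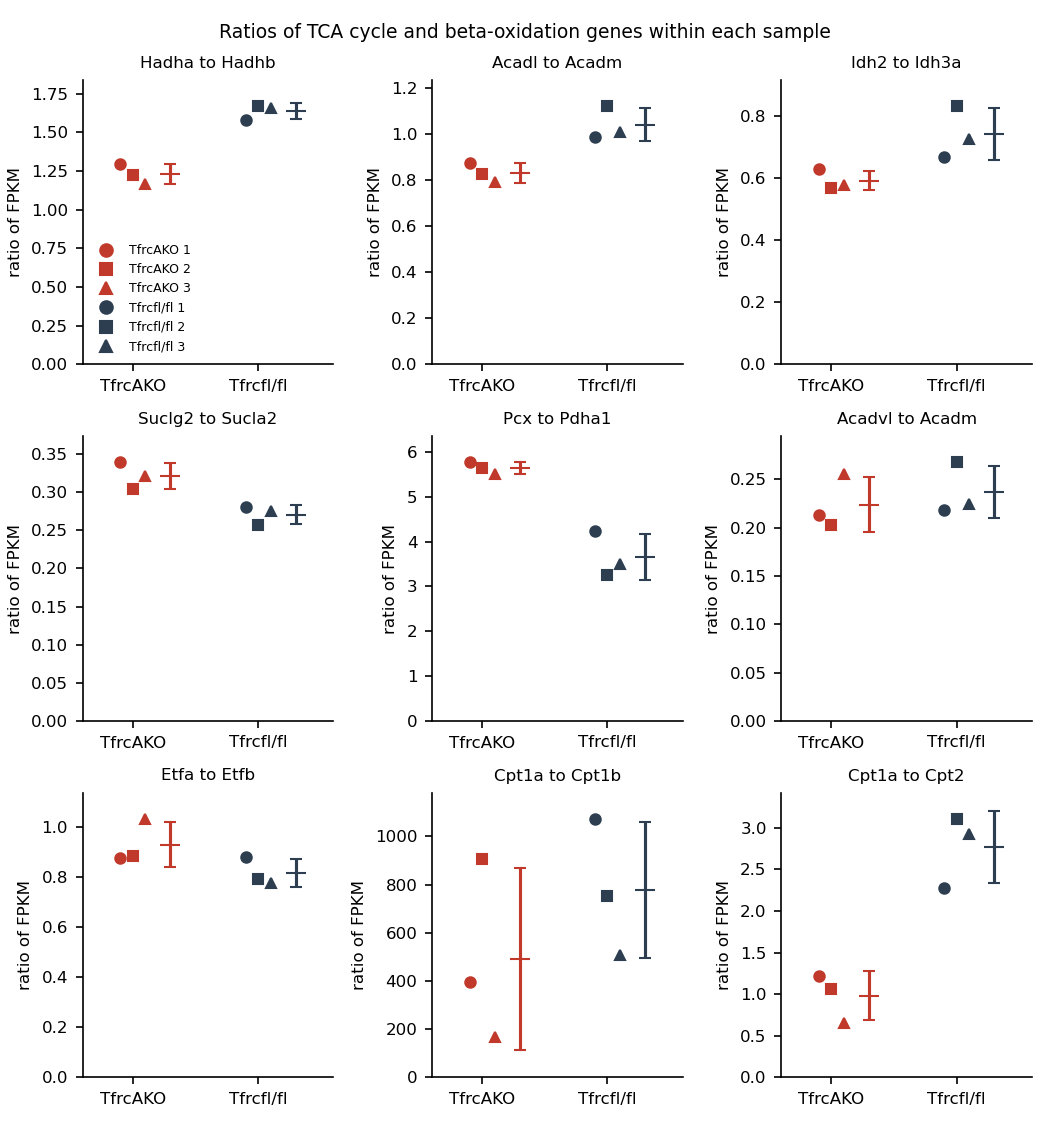
Ratio of the FPKM of 2 genes within each sample, TfrcAKO left of Tfrcfl/fl, for the 8 ratios tested together and for Cpt1a to Cpt2, which was added after its values were seen; symbols are replicates, and the bars give the mean and SD of 3 samples. The groups do not overlap in 5 of the 8, as for Hadha to Hadhb (means of 1.23 in TfrcAKO and 1.64 in Tfrcfl/fl tissue). Each of the 5 had an adjusted p of 0.16 by the exact permutation test. Among single tested genes, 60.1% had groups that did not overlap, in either direction. The groups overlap for Acadvl to Acadm, Etfa to Etfb and Cpt1a to Cpt1b.

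Hadha and Hadhb face away from each other on chromosome 5. In the authors' table Hadha (minus strand) ends at 30155162 and Hadhb (plus strand) starts at 30155248, with 85 bases between them. The stretch that both RefSeq promoter windows share is shown because the pair start from neighbouring positions and Hadhb was called while Hadha was not. It is written on the plus strand, and capitals mark the 68 bases of it that lie between the gene bodies.
Hadha and Hadhb, chr5:30155003-30155230, plus strand: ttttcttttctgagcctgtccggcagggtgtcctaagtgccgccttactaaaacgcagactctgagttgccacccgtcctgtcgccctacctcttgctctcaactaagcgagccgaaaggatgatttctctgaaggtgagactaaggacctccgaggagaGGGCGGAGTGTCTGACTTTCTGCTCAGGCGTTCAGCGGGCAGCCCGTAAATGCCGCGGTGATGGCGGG
Exons of Hadha also overlap Garem2 on the opposite strand in GENCODE M21, and the strand setting of the authors' counting is not given in the sources used here. The same holds for 6 other genes of the set, Acadvl, Acsl1, Eci2, Etfdh, Idh3b and Pdha1. Their overlapping partners with a level in the table had means of at most 9.51 FPKM in TfrcAKO and 10.9 FPKM in Tfrcfl/fl tissue, the values of Nop56 beside Idh3b. No level was found by name for Garem2, or for Gm45244 beside Acsl1. Gm16984 beside Eci2 was itself called higher (0.76, limma adjusted p = 0.0243). Etfb overlaps Gm45233 and Mir7051 on its own strand, also without a level found by name. The part of such overlaps in the levels was not tested.

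The enzymes of shorter chains and the auxiliary enzymes for unsaturated fatty acids rose. Eci1, an enoyl-CoA isomerase that moves double bonds into the position beta-oxidation can use, was at 74.3, 80.1 and 112 FPKM in TfrcAKO samples, against 48.4, 35.1 and 33.9 FPKM in Tfrcfl/fl samples. Its change of 1.17 ± 0.20 was the second largest of the set. Hadh, the hydroxyacyl-CoA dehydrogenase of medium and short chains, was at 67.3, 70.5 and 94.7 FPKM in TfrcAKO samples, against 46.1, 35.5 and 38.0 FPKM in Tfrcfl/fl samples. Every TfrcAKO sample was above every Tfrcfl/fl sample in both genes. Decr1, the dienoyl-CoA reductase, rose by 0.84 ± 0.13, Eci2, an isomerase found in mitochondria and peroxisomes, by 0.61 ± 0.08, and Acaa2, the medium-chain thiolase, by 0.47 ± 0.09. These 5 genes kept their call in every fit that left out a single library. Outside the set, a mixed list of enzymes, carriers and regulators tied to beta-oxidation held 18 tested genes. Of these 13 rose, against 21.9% of all tested genes, and 1, Acsl4, fell. Not all of the 13 are beta-oxidation enzymes, as they include Acacb, which makes the inhibitor malonyl-CoA. Without Tfrcfl/fl replicate 2 the number that rose was 8, and 2 fell without TfrcAKO replicate 1. Acad11, a further acyl-CoA dehydrogenase, rose by 1.21 ± 0.12 and Acad9, which also assembles complex I, by 0.68 ± 0.09.

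The electrons of every acyl-CoA dehydrogenase pass to the electron transfer flavoprotein, a dimer of Etfa and Etfb, and from it through Etfdh to ubiquinone. Etfa was at 188, 204 and 241 FPKM in TfrcAKO samples, against 135, 108 and 108 FPKM in Tfrcfl/fl samples. Etfb was at 215, 232 and 234 FPKM in TfrcAKO samples, against 153, 136 and 139 FPKM in Tfrcfl/fl samples. Etfdh, the dehydrogenase with an iron-sulfur cluster, was at 27.8, 29.9 and 31.5 FPKM in TfrcAKO samples, against 22.3, 18.6 and 18.1 FPKM in Tfrcfl/fl samples. All 3 genes were higher in each TfrcAKO sample, with changes of 0.85 ± 0.14, 0.67 ± 0.09 and 0.59 ± 0.10, and each kept its call whichever library was left out. The ratio of Etfa to Etfb was 0.874, 0.882 and 1.03 in TfrcAKO samples, against 0.879, 0.792 and 0.776 in Tfrcfl/fl samples, with overlapping groups (exact permutation p = 0.2).

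The median change of the set lay between those of 2 other groups of genes of the same samples. Of 21 mature adipocyte markers 20 rose, with a median of 1.57 and changes from 0.48 to 3.34. Their summed level was 26072 to 39037 FPKM in TfrcAKO and 9721 to 13765 FPKM in Tfrcfl/fl samples. None of the markers was at 0; Adipoq, the adiponectin gene, was at 1464 ± 356 FPKM in TfrcAKO and 384 ± 98.9 FPKM in Tfrcfl/fl tissue. Of 20 mitochondrial housekeeping genes of import, chaperones, proteases and pores, 9 rose and 1, Vdac2, fell. Their median was 0.18, with changes from −0.56 to 0.74. Over all tested genes 21.9% rose and 21.6% fell. Subtracting the adipocyte marker mean from the mean of the 34 genes in each sample, on the log2 scale, left −1.88, −1.87 and −2.24 in TfrcAKO samples, against −1.13, −0.84 and −0.89 in Tfrcfl/fl samples. Relative to the housekeeping mean the values were 0.95, 1.00 and 1.15 in TfrcAKO samples, against 0.73, 0.54 and 0.54 in Tfrcfl/fl samples. The mean of the 34 genes was thus lower relative to the adipocyte marker mean in each TfrcAKO sample than in any Tfrcfl/fl sample. Relative to the housekeeping mean it was higher in each TfrcAKO sample. These are differences of list means, and the changes of single genes in both lists overlapped those of the 34, which ran from −0.61 to 1.56.

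**Figure D4:**
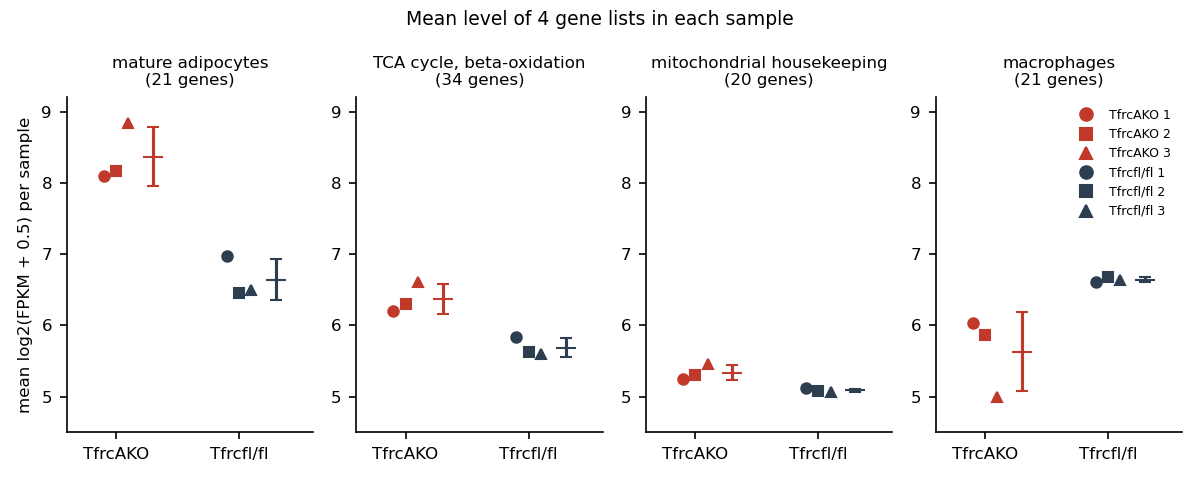
Mean log2(FPKM + 0.5) of 4 gene lists in each sample, TfrcAKO left of Tfrcfl/fl; symbols are replicates and bars the mean and SD of 3 samples. TfrcAKO replicate 3 has the highest adipocyte mean (8.85) and the lowest macrophage mean, and also the highest mean of the TCA cycle and beta-oxidation genes (6.61).

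Markers of other cells moved in the same samples, where 21.6% of all tested genes fell and 21.9% rose. Of 21 macrophage markers 16 fell and none rose, with a median of −1.12; their sum was 1760 to 4054 FPKM in TfrcAKO and 7366 to 8538 FPKM in Tfrcfl/fl samples, and none was at 0. All 10 endothelial markers rose, with a median of 1.08 and sums of 295 to 443 FPKM in TfrcAKO and 143 to 163 FPKM in Tfrcfl/fl samples. The mean of the 34 genes was highest in the sample with the highest adipocyte and lowest macrophage means, TfrcAKO replicate 3, and within Tfrcfl/fl it was highest in replicate 1, which also had the highest adipocyte mean of its group. Of 12 progenitor and fibroblast markers, 4 fell (Col1a1, Col3a1, Fbn1 and Icam1), against 21.6% of all tested genes, and none rose. Of 8 mesothelial markers 7 rose, against 21.9% of all tested genes. The part of these cell type markers in the changes of the 34 genes was not tested. Ucp1, the defining gene of brown fat, was at 0.0879 ± 0.0140 FPKM in TfrcAKO and 0.0918 ± 0.0654 FPKM in Tfrcfl/fl tissue, too low to test. Of the brown and beige list, Cidea, Cox8b, Cox7a1, Kcnk3 and Prdm16 rose, and Elovl3 and Dio2 were called to fall. Elovl3 was at 0.210 ± 0.230 FPKM in TfrcAKO and 0.991 ± 0.281 FPKM in Tfrcfl/fl tissue. Dio2 was at 0.366 ± 0.150 FPKM in TfrcAKO and 0.699 ± 0.00668 FPKM in Tfrcfl/fl tissue. Both passed the filter of 0.5 FPKM through their Tfrcfl/fl samples, so these calls rest on levels near it. Cidea, at 0.467 ± 0.343 FPKM in Tfrcfl/fl tissue, would not have passed it on those samples alone. Of 10 skeletal muscle markers 7 were tested and 2, Acta1 and Myl1, rose, a share near the 21.9% of all tested genes; the list summed to 54.2 to 59.4 FPKM in TfrcAKO and 27.5 to 36.5 FPKM in Tfrcfl/fl samples, while Ckm and Myh4 were below 0.05 FPKM on average in both groups.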

How the data were processed

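Total RNA libraries of 6 epididymal fat samples, 3 TfrcAKO and 3 Tfrcfl/fl, were analysed. Per the submitters' processing notes CASAVA, FastQC, STAR 2.5 and HTSeq 0.6.1 were used on mm10; the sources used here give no strand setting, annotation release or filter. The authors deposited FPKM per gene, per the file headers, with gene length. FPKM times length in kilobases summed to 1000000 per sample, and all values were whole multiples of 1 read within 0.01, which gave the reads per gene. A count of 3 reads on 2 kb corresponds to 0.0489 to 0.0594 FPKM; such limits cover counting error only.

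Genes with at least 0.5 FPKM in 3 samples (14383) were tested with limma 3.58.1 (R 4.3.3) on log2(FPKM + 0.5), with genotype as the only term, trend and robust moderation; ± after a log2 fold change is its standard error. All 34 genes passed the filter. Within-sample ratios were tested with two-sided exact permutation tests (scipy 1.17.1). Libraries of one group differed by more than counting noise (chi-square per degree of freedom 16.7 to 107). Nothing in the labels says that samples are separate animals, so the p-values only measure the spread between samples, and that spread may be technical. The 34 genes and the other gene lists were chosen with earlier results of these data known. Named were all 34 genes, up to 2 called genes per direction in each further list, Tfrc, Adipoq, Ucp1 and Acta1; other names were chosen after their values were seen. A result among the further TCA cycle genes is not reported here. Alternatives were other pseudocounts (0.1 and 1), filters (1 FPKM, none), a replicate block, limma-voom on the recovered reads, median-of-ratios scaling and leaving out libraries.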

Additional observations from a re-analysis of the deposited data

How the results depend on the processing

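All 34 genes kept the direction of their change in each alternative run. The number that rose was 32 with pseudocounts of 0.1 or 1, a filter at 1 FPKM and limma-voom on the recovered reads, 31 with median-of-ratios scaling, 29 with no filter, and 30 without both TfrcAKO replicate 3 and Tfrcfl/fl replicate 2. Leaving out 1 library at a time gave 22 to 32 that rose and 0 to 1 that fell; 21 of the 33 called genes kept their call in all 6 of these fits, and the other 12 lost it in at least 1. Calls over all genes then ranged from 3336 to 5861, with 1903 to 2963 higher and 1283 to 3069 lower in TfrcAKO tissue. The change of Tfrc ranged from −0.62 to −0.42, with an adjusted p above 0.05 without Tfrcfl/fl replicate 2 (0.0595) or 3 (0.0525). The log2 difference of the Acadvl to Acadm ratio ranged from −0.18 to 0.01 and changed sign without Tfrcfl/fl replicate 2, to 0.0101; the cause was not tested. Same-numbered samples did not deviate together (correlations of −0.24, 0.03 and −0.18), so the numbers are not treated as pairs; with the replicate block 28 of the 34 genes rose, 1 fell, and 4581 genes were called; Dlat, Idh3b, Ogdh and Dlst lost their call. With 3 samples a group no ratio could reach an exact p under 0.1.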
